A study of Homo sapiens with 12 samples.

Results

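The cyclins, cyclin-dependent kinases (CDKs) and CDK inhibitors of the G1 phase were followed across the 4 groups of an RNA-seq experiment in MOLM-13, an established human acute myeloid leukemia (AML) cell line that carries FLT3-ITD, an activating duplication in the receptor tyrosine kinase FLT3. The 10 genes, chosen by name with earlier results of these data known, were CCND2, CCND3, CCNE1, CDK2, CDK4, CDK6, CDC25A, CDKN1A, CDKN1B and CDKN2D. They are 10 of the 57353 gene names in the count table and 10 of the 12998 genes that passed the filter on low counts, so no member was lost to the filter. Cells were exposed for 15 hr to vehicle (DMSO) or to 3 nM quizartinib (AC220), an inhibitor of the FLT3 kinase, in RPMI or in hBMSC-CM. RPMI was the regular culture medium, and hBMSC-CM was RPMI combined with medium conditioned by the human bone marrow stromal line HS-5, so the stromal cells themselves were not in the culture. The groups were vehicle in RPMI, quizartinib in RPMI, vehicle in hBMSC-CM and quizartinib in hBMSC-CM, with 3 libraries each. The comparisons ask how the drug changed these transcripts in each medium and whether the conditioned medium altered that response. All libraries came from 1 cell line. The study calls its replicates biological, the labels do not say whether they were separate cultures, and p-values measure only the spread between these samples.

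In G1, D-type cyclins bind CDK4 or CDK6 and cyclin E binds CDK2, and these complexes phosphorylate the retinoblastoma protein, which frees E2F factors to transcribe the genes of S phase. CDC25 phosphatases remove inhibitory phosphates from CDKs, while the CIP/KIP proteins (such as p21 and p27) and the INK4 proteins (such as p19) bind and inhibit the kinases. Signals from growth factor receptors, FLT3 among them, are known to feed into this switch through D-type cyclins, MYC and the stability of p27.

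Libraries held 19966546 to 31546104 counts each, with TMM scaling factors of 0.956 to 1.04 in edgeR. Levels are given as CPM, the count of a gene relative to the TMM-scaled size of its library. CPM is thus a share, not an amount of transcript per cell. In its polysome experiment the study reported a lower RNA yield from whole lysates with quizartinib, which CPM does not reflect. A gene without any count could still have up to 3 counts, or 0.0951 to 0.150 CPM, a limit that covers counting error only. All 10 myeloid markers checked were expressed, with a summed level of 1351 to 1403 CPM for vehicle and 2080 to 2101 CPM for quizartinib in RPMI, and of 1591 to 1633 and 2367 to 2532 CPM in hBMSC-CM, although MPO stayed at or below 5.79 CPM in each library. Of 15 stromal markers, 8 (among them COL3A1, DCN, LUM and POSTN) had no count in any library, and the list summed to 3.83 to 4.29 CPM for vehicle and 11.1 to 13.5 CPM for quizartinib in RPMI, and to 3.18 to 4.06 and 6.45 to 7.12 CPM in hBMSC-CM. The stromal sum was thus highest in a group that received no conditioned medium. Of this list only COL1A1 and TAGLN passed the filter, and with quizartinib in RPMI they went from 0.177 to 4.61 CPM and from 2.55 to 6.19 CPM. The part of either list in the results below was not tested. These are bulk measurements, in which fewer cells of a kind (for instance, cells in a given phase of the cycle) and less RNA per cell cannot be told apart. In a separate measurement by flow cytometry, the study found a similar arrest in G1 with quizartinib in both media. How phase bears on the transcripts here was not tested.

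Quizartinib in RPMI lowered 7 of the 10 genes and raised 2 (edgeR quasi-likelihood test, p adjusted by Benjamini-Hochberg over all 12998 genes). The drug changed most genes in RPMI (79.3% called, 40.1% higher and 39.2% lower), so the count of 9 says little by itself. The median log2 fold change of the 10 genes was −1.75, against 0.02 for all genes tested. All 7 lowered members fell at least 2-fold, as 11.8% of all tested genes did. Since the genes were chosen with earlier results of these data known, these sizes are a description. In hBMSC-CM all 10 genes were called, 7 lower and 3 higher (67.1% of all genes were called, 33.4% higher and 33.7% lower), with a median of −0.93 against 0.01. Of all called genes in hBMSC-CM 49.8% were higher, a share that was 62.8% under scaling by library size and 60% under upper-quartile scaling, while the members kept 3 higher and 7 lower calls under both.

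**Figure D1:**
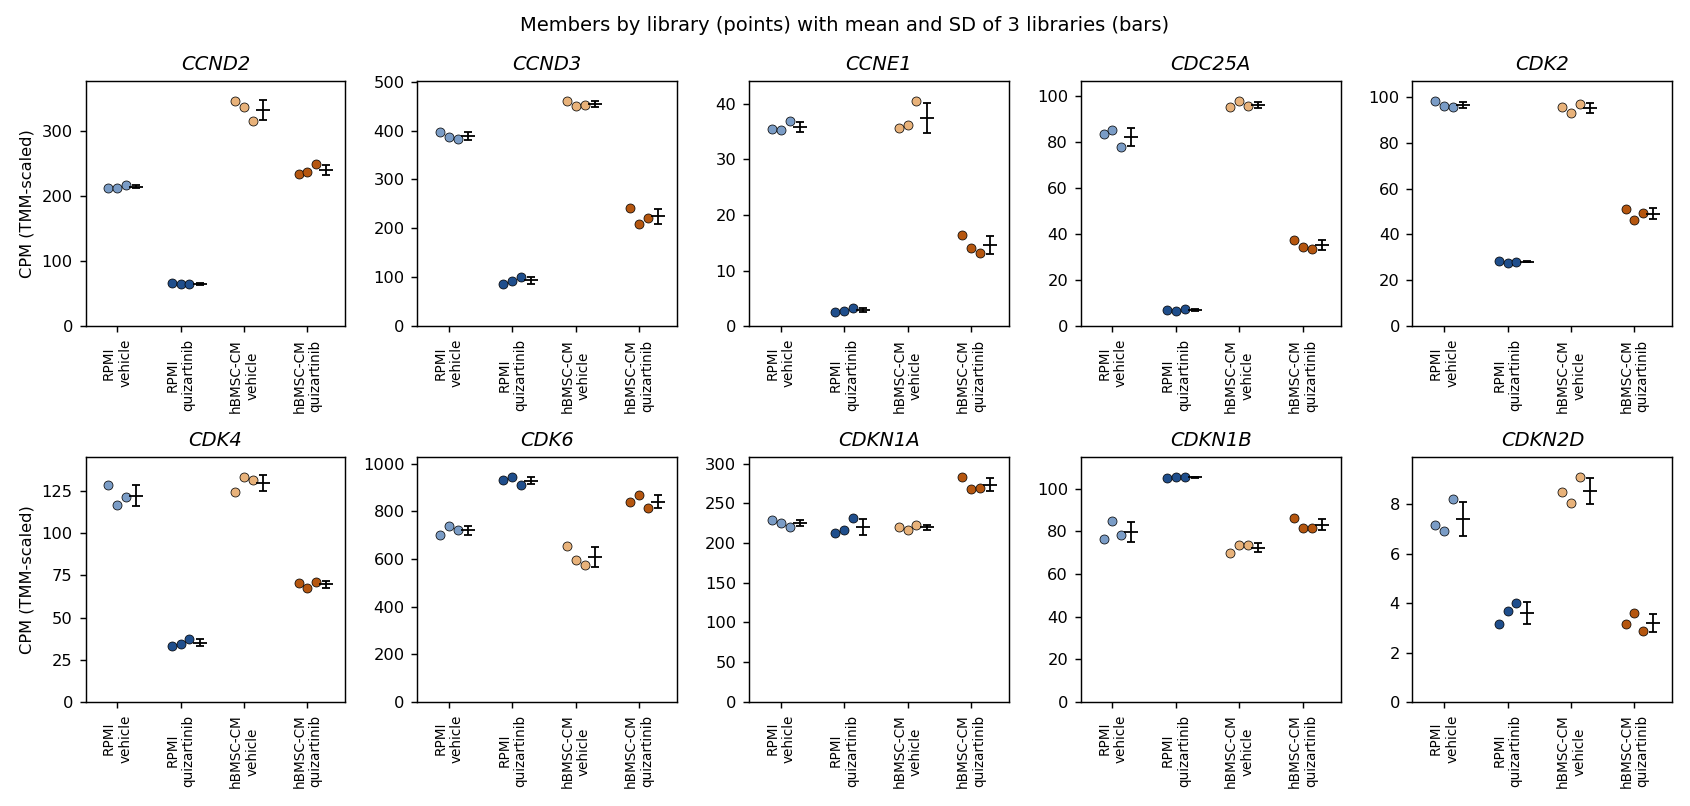
TMM-scaled CPM of the 10 genes (y axis, linear from 0, 1 panel per gene) in the 4 groups (x axis), with a point for each of the 3 libraries and a bar for the mean and SD of the group. CCNE1 and CDC25A stood near 36 and 82 CPM for vehicle in RPMI and near 3 and 7 CPM with quizartinib, with intermediate levels for quizartinib in hBMSC-CM, whereas CDK6 was highest with quizartinib in RPMI.

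Among the cyclins, CCND2 (cyclin D2, chr12:4269771-4305353, plus strand, GRCh38), a partner of CDK4 and CDK6, measured 212, 212 and 217 CPM for vehicle in RPMI and 66.1, 64.0 and 64.8 CPM with quizartinib. In the conditioned medium it measured 345, 335 and 314 CPM for vehicle and 233, 236 and 248 CPM with quizartinib. No group overlapped another, and the CPM of CCND2 was higher with quizartinib in hBMSC-CM than with vehicle in RPMI. The drop with quizartinib was 3.29-fold in RPMI (log2 fold change −1.72, SE 0.04, adjusted p = 1.74e-18) and 1.39-fold in hBMSC-CM (−0.47, SE 0.04, adjusted p = 3.35e-09). With vehicle, hBMSC-CM raised CCND2 1.55-fold over RPMI (adjusted p = 3.42e-10), and quizartinib in hBMSC-CM stood slightly above vehicle in RPMI (log2 0.16, adjusted p = 0.00236). It was the only cyclin of the 3, and the only one of the 7 lowered members, for which this last comparison was called higher. In the annotation, 12.5% of CCND2's exon bases are shared with a protein-coding gene (ENSG00000285901) on the same strand, so its counts are uncertain to that extent.

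CCND3 (cyclin D3, chr6:41934934-42050357, minus strand), the other D-type cyclin of the set, measured 398, 386 and 383 CPM for vehicle and 86.9, 93.3 and 100.1 CPM for quizartinib in RPMI. In hBMSC-CM the values were 459.8, 449 and 453 CPM for vehicle and 241, 209.6 and 222 CPM for quizartinib. The 4 groups were again separate, but in a different order, with quizartinib in hBMSC-CM below vehicle in RPMI (1.73-fold, adjusted p = 2.65e-11). Quizartinib lowered CCND3 4.17-fold in RPMI (log2 fold change −2.06, SE 0.05, adjusted p = 1.91e-18) and 2.02-fold in hBMSC-CM (−1.02, SE 0.05, adjusted p = 6.10e-13). With vehicle, hBMSC-CM raised it 1.17-fold (adjusted p = 0.00198).

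The balance between both D-type cyclins moved as well. The ratio of CCND2 to CCND3 counts within a library, which needs no scaling between libraries, was 0.550 ± 0.016 (SD, n = 3) for vehicle and 0.697 ± 0.058 for quizartinib in RPMI. The ratio in hBMSC-CM was 0.730 ± 0.031 for vehicle and 1.07 ± 0.09 for quizartinib. An exact two-sided permutation test gave p = 0.1 for each of the 8 ratio comparisons made here and for CDK4 and CDK6 (adjusted 0.1), the smallest p that 3 libraries against 3 allow. Per kilobase of transcript, the scale on which genes can be set against each other, CCND3 remained the larger, and CCND2 gave 14.6% and 17.8% of the summed level of both without and with the drug in RPMI, and 18.6% and 24.9% in hBMSC-CM.

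CCNE1 (cyclin E1, chr19:29811991-29824312, plus strand), the activating partner of CDK2, had the largest drop of the set in RPMI, close to that of CDC25A. In hBMSC-CM the falls of CDC25A and CDKN2D were slightly larger than that of CCNE1, and neither order was tested. CCNE1 measured 35.4, 35.2 and 36.9 CPM for vehicle in RPMI and 2.56, 2.82 and 3.22 CPM with quizartinib, from 66 to 81 counts per library. In hBMSC-CM the values were 35.6, 36.1 and 40.4 CPM for vehicle and 16.4, 14.1 and 13.2 CPM with quizartinib. The vehicle groups of both media overlapped and did not pass the test of their difference (log2 0.06, 95% interval −0.08 to 0.20, adjusted p = 0.548), while the quizartinib groups were 5.15-fold apart (adjusted p = 7.68e-14). Quizartinib lowered CCNE1 12.6-fold in RPMI (log2 fold change −3.65, SE 0.10, adjusted p = 3.00e-18), which placed it as number 25 in the order of falls over the 12998 genes. In hBMSC-CM the fall was 2.55-fold (−1.35, SE 0.08, adjusted p = 2.87e-12).

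CDC25A (chr3:48157146-48188417, minus strand), the phosphatase that activates CDK2 and CDK4 complexes at the G1/S boundary, ran almost in parallel with CCNE1. Its levels were 83.5, 85.3 and 77.9 CPM for vehicle and 6.87, 6.47 and 7.33 CPM for quizartinib in RPMI. In hBMSC-CM they were 95.2, 97.9 and 95.9 CPM for vehicle and 37.7, 34.2 and 33.8 CPM for quizartinib. All 4 groups were separate. The fall was 12.01-fold in RPMI (log2 fold change −3.59, SE 0.07, adjusted p = 1.14e-20), number 27 over all genes, and 2.72-fold in hBMSC-CM (−1.45, SE 0.05, adjusted p = 3.87e-15). Across the 12 libraries, the Pearson correlation of log2 CPM between CDC25A and CCNE1 was 0.998, a description over 4 groups rather than over independent points.

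The sequence before the start of CDC25A is shown because the gene is a known E2F target and because its window held the only E2F word found among the members. Promoter windows of 250 bases before the start, from RefSeq (GRCh38.p14), were found for 8 of the 10 genes, in 11 windows. They were searched on both strands for the E-box CACGTG, which MYC and related factors bind, and for the E2F words TTTCCCGC, TTTCGCGC, TTTGGCGC and TTTGCCGC. Over 35116 windows of this length, 6.34% held the E-box and 2.79% held an E2F word. The CDC25A window (chr3:48188418-48188667, minus strand) is given 5′ to 3′ with the E2F word, which begins 44 bases before the start, in capitals.
CDC25A: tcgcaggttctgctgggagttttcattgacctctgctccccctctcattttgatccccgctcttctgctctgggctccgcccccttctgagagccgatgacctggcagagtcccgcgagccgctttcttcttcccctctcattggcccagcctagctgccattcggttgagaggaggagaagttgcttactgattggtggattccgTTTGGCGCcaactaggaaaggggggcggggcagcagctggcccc
Of the members with a window, CDK4 alone held E-boxes, 3 in all, beginning 216, 196 and 101 bases before the start. Only stretches of 30 bases around them are shown, from chr12:57752499-57752528 and chr12:57752394-57752423 on the minus strand, since 137 bases of the window lie in exons of other CDK4 transcripts, and the E-boxes are in capitals.
CDK4 distal: gtCACGTGtgatagcaacagatCACGTGgc
CDK4 proximal: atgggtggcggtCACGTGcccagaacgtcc
A match of letters is not a binding site shown to be used, and no match says nothing of the factor. MYC itself, which encodes the E-box binding factor, had mean levels of 429 CPM for vehicle and 50.5 CPM for quizartinib in RPMI, and of 787 and 595 CPM in hBMSC-CM. E2F1, which encodes an activating E2F, had means of 58.2 and 7.88 CPM in RPMI and of 48.7 and 25.1 CPM in hBMSC-CM. With quizartinib in hBMSC-CM, MYC thus stood above its level for vehicle in RPMI, as CCND2 did, and E2F1, CDC25A and CDK4 stood below theirs.

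Of the kinases, CDK2 (chr12:55966781-55972789, plus strand), the partner of cyclin E, measured 98.0, 95.8 and 95.3 CPM for vehicle and 28.4, 27.7 and 28.1 CPM for quizartinib in RPMI. With hBMSC-CM the values were 95.5, 92.7 and 96.9 CPM for vehicle and 51.3, 46.4 and 49.2 CPM for quizartinib. Vehicle-treated cells of both media overlapped (log2 difference −0.02, 95% interval −0.11 to 0.07, adjusted p = 0.752), and the difference took the other sign, 0.0024, without replicate 2 of vehicle in hBMSC-CM. The drop was 3.43-fold in RPMI (log2 fold change −1.78, SE 0.05, adjusted p = 2.16e-18) and 1.94-fold in hBMSC-CM (−0.96, SE 0.04, adjusted p = 1.84e-13). In the annotation, 14.5% of CDK2's exon bases are shared with a noncoding gene on the opposite strand, and without knowledge of strand in the counting their reads cannot be told apart.

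CDK4 (chr12:57747727-57756013, minus strand), a kinase of the D-type cyclins, measured 129, 117 and 121 CPM for vehicle and 33.2, 34.5 and 37.3 CPM for quizartinib in RPMI. The hBMSC-CM libraries measured 125, 133 and 132 CPM for vehicle and 70.6, 67.4 and 71.1 CPM for quizartinib. Quizartinib lowered it 3.50-fold in RPMI (log2 fold change −1.81, SE 0.05, adjusted p = 8.67e-18) and 1.86-fold in hBMSC-CM (−0.90, SE 0.05, adjusted p = 2.15e-12), and the vehicle groups overlapped (log2 difference 0.09, 95% interval −0.01 to 0.19, adjusted p = 0.174). CDK4 overlaps TSPAN31, a tetraspanin gene on the opposite strand, over 1078 bases, or 57.8% of its canonical transcript, so the CDK4 values are uncertain. TSPAN31 moved the other way, from 13.2 to 33.6 CPM in RPMI and from 12.97 to 25.1 CPM in hBMSC-CM. TSPAN31 was thus high where CDK4 was low, and how reads from the shared bases were counted, or whether they were lost, was not tested.

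CDK6 (chr7:92604921-92836573, minus strand), the other kinase of the D-type cyclins and the form usually prominent in blood cells, went the opposite way to CDK4. It measured 699.8, 737 and 723 CPM for vehicle and 929.9, 944 and 912 CPM for quizartinib in RPMI. In hBMSC-CM the values were 654, 595 and 574 CPM for vehicle and 841, 867 and 815 CPM for quizartinib. Each quizartinib library lay above each vehicle library. The rise was 1.29-fold in RPMI (log2 fold change 0.37, SE 0.05, adjusted p = 4.85e-07) and 1.38-fold in hBMSC-CM (0.47, SE 0.05, adjusted p = 3.06e-08). Without drug, the CPM of CDK6 was 1.18-fold lower in hBMSC-CM than in RPMI (adjusted p = 0.00056). With quizartinib it was 1.104-fold lower in hBMSC-CM (adjusted p = 0.0117), a call that was lost without replicate 3 of quizartinib in hBMSC-CM (log2 −0.12, adjusted p = 0.0635) and under other filters on low counts.

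The ratio of CDK4 to CDK6 counts fell from 0.170 ± 0.013 (SD, n = 3) to 0.0377 ± 0.0028 with quizartinib in RPMI and from 0.215 ± 0.021 to 0.0830 ± 0.0048 in hBMSC-CM (exact permutation p = 0.1 each, the smallest possible). Per kilobase of transcript the kinases stood close to each other with vehicle in RPMI, at 65.5 CPM per kilobase for CDK4 and 61.7 for CDK6. CDK4 gave 51.5% of their summed level there and 19.1% with quizartinib, against 57.2% and 34.1% in hBMSC-CM. The summed level of both changed less, from 127 to 98.4 CPM per kilobase in RPMI and from 122 to 109 in hBMSC-CM, than that of CCND2 and CCND3, which went from 225 to 56.1 and from 275 to 148. The ratios, levels, shares and sums that include CDK4 are uncertain, since TSPAN31 overlaps 57.8% of the transcript whose full length was used. This holds for its closeness to CDK6 too.

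**Figure D2:**
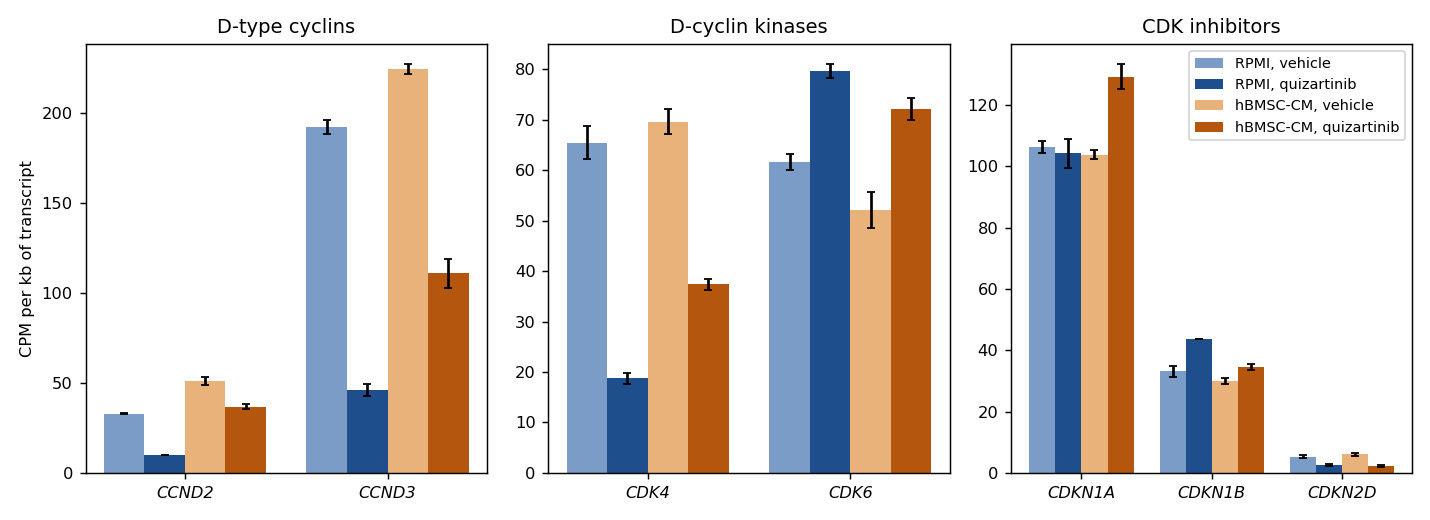
TMM-scaled CPM per kilobase of canonical transcript (y axis, linear from 0, a scale of its own in each panel) of the D-type cyclins, their kinases and the inhibitors in the 4 groups, with bars for the mean and error bars for the SD of 3 libraries. CCND3 fell from 192 to 46.1 with quizartinib in RPMI, CDK4 and CDK6 moved apart from 65.5 and 61.7 to 18.8 and 79.6, and CDKN1A stood at 104 to 129 in all groups. The CDK4 values are uncertain because of its overlap with TSPAN31.

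The inhibitors did not move as a group. CDKN1A (p21, chr6:36676460-36687337, plus strand), a CIP/KIP inhibitor of CDKs, measured 229, 225 and 221 CPM for vehicle and 213, 217 and 232 CPM for quizartinib in RPMI, which overlapped. Its log2 fold change there was −0.03 (SE 0.04, 95% interval −0.12 to 0.06, adjusted p = 0.532). The sign was not stable, at 0.0597 under scaling by library size, 0.0727 under upper-quartile scaling and 0.0033 without replicate 1 of quizartinib in RPMI, and with no filter on low counts the gene was called lower (−0.13, adjusted p = 0.0173). In hBMSC-CM it measured 220.0, 216 and 223 CPM for vehicle and 283, 268 and 269 CPM for quizartinib, without overlap, a 1.24-fold rise (log2 fold change 0.32, SE 0.04, adjusted p = 1.12e-06). CDKN1A was thus the only member called with the drug in hBMSC-CM and not in RPMI, and the responses differed by 0.34 on the log2 scale (SE 0.06, adjusted p = 6.76e-05). Its vehicle levels did not pass the test between media (log2 −0.03, 95% interval −0.12 to 0.05, adjusted p = 0.580).

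CDKN1B (p27, chr12:12685498-12722369, plus strand), a CIP/KIP inhibitor of cyclin E and CDK2 complexes and a known FOXO target, measured 76.2, 85.0 and 78.2 CPM for vehicle and 105.0, 105.3 and 105.4 CPM for quizartinib in RPMI. With hBMSC-CM it measured 69.7, 73.7 and 73.6 CPM for vehicle and 86.2, 81.6 and 81.6 CPM for quizartinib. The drug groups lay above the vehicle groups of the same medium. The rise was 1.32-fold in RPMI (log2 fold change 0.40, SE 0.05, adjusted p = 6.80e-08) and 1.15-fold in hBMSC-CM (0.20, SE 0.05, adjusted p = 0.000659). With vehicle the gene was 1.104-fold lower in the conditioned medium (adjusted p = 0.0233), a call lost without replicate 2 of vehicle in RPMI (adjusted p = 0.160) or replicate 1 of vehicle in hBMSC-CM (adjusted p = 0.108). Quizartinib in hBMSC-CM and vehicle in RPMI overlapped and did not pass the test (log2 0.06, 95% interval −0.04 to 0.16, adjusted p = 0.260), but were called apart under scaling by library size (0.15, adjusted p = 0.00901) and upper-quartile scaling (0.12, adjusted p = 0.0345).

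CDKN2D (p19, chr19:10566460-10569059, minus strand), an INK4 inhibitor of CDK4 and CDK6, was the scarcest member per kilobase in 3 of the 4 groups. It measured 7.15, 6.92 and 8.21 CPM for vehicle and 3.14, 3.69 and 4.01 CPM for quizartinib in RPMI. The hBMSC-CM libraries measured 8.51, 8.06 and 9.11 CPM for vehicle and 3.15, 3.599 and 2.86 CPM for quizartinib. The drug groups lay below the vehicle groups in both media, with falls of 2.06-fold in RPMI (log2 fold change −1.04, SE 0.12, adjusted p = 6.94e-08) and 2.67-fold in hBMSC-CM (−1.42, SE 0.12, adjusted p = 1.86e-09). Neither the vehicle groups (adjusted p = 0.128) nor the quizartinib groups (log2 −0.16, 95% interval −0.45 to 0.12, adjusted p = 0.300) passed the test between media.

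Counts of CCNE1 relative to CDKN1B, an activating subunit against its inhibitor, went from 0.451 ± 0.032 (SD, n = 3) to 0.0272 ± 0.0031 with quizartinib in RPMI and from 0.517 ± 0.030 to 0.175 ± 0.014 in hBMSC-CM. CDK2 relative to CDKN1B went from 1.21 ± 0.08 to 0.267 ± 0.003 and from 1.31 ± 0.06 to 0.589 ± 0.018. No test was made of these ratios, and in both the range of quizartinib in hBMSC-CM lay between those of quizartinib and of vehicle in RPMI.

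The difference between the drug responses in the 2 media was tested by the interaction term of the model, and 8 of the 10 genes passed (45.2% of all tested genes, 26.1% with a positive and 19.2% with a negative term). The term was positive for 7. It was 2.30 (SE 0.13) on the log2 scale for CCNE1, 2.14 (SE 0.09) for CDC25A, 1.25 (SE 0.06) for CCND2 and 1.04 (SE 0.07) for CCND3. For CDK4 it was 0.91 (SE 0.07) and for CDK2 0.82 (SE 0.06), with adjusted p of 1.41e-09 or less for these 6 genes. The term was negative for CDKN1B (−0.20, SE 0.07, adjusted p = 0.0185), a call lost without replicate 2 of quizartinib in hBMSC-CM (−0.18, adjusted p = 0.0538) and under other filters on low counts. CDK6 did not pass (0.10, 95% interval −0.04 to 0.24, adjusted p = 0.238) but did without replicate 1 of vehicle in hBMSC-CM (0.16, adjusted p = 0.0466). CDKN2D did not pass either (−0.37, 95% interval −0.74 to −0.01, adjusted p = 0.0840) but did without replicate 3 of vehicle (−0.46, adjusted p = 0.0438) or replicate 1 of quizartinib (−0.48, adjusted p = 0.0359) in RPMI.

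As a share of its log2 fall in RPMI, the fall in hBMSC-CM was 27.5% for CCND2, 36.9% for CCNE1, 40.3% for CDC25A, 49.3% for CCND3, 49.6% for CDK4 and 53.7% for CDK2. The median share over the 5096 genes lowered in RPMI was 49.3%. CCND3, CDK4 and CDK2 were therefore near that median, CCND2, CCNE1 and CDC25A kept a smaller share of the fall, and CDKN2D stood at 136%. Only 1536 of the 5096 genes fell at least 2-fold in RPMI, as all 7 lowered members did. No spread of the shares was computed and no comparison with genes of similar falls was made.

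**Figure D3:**
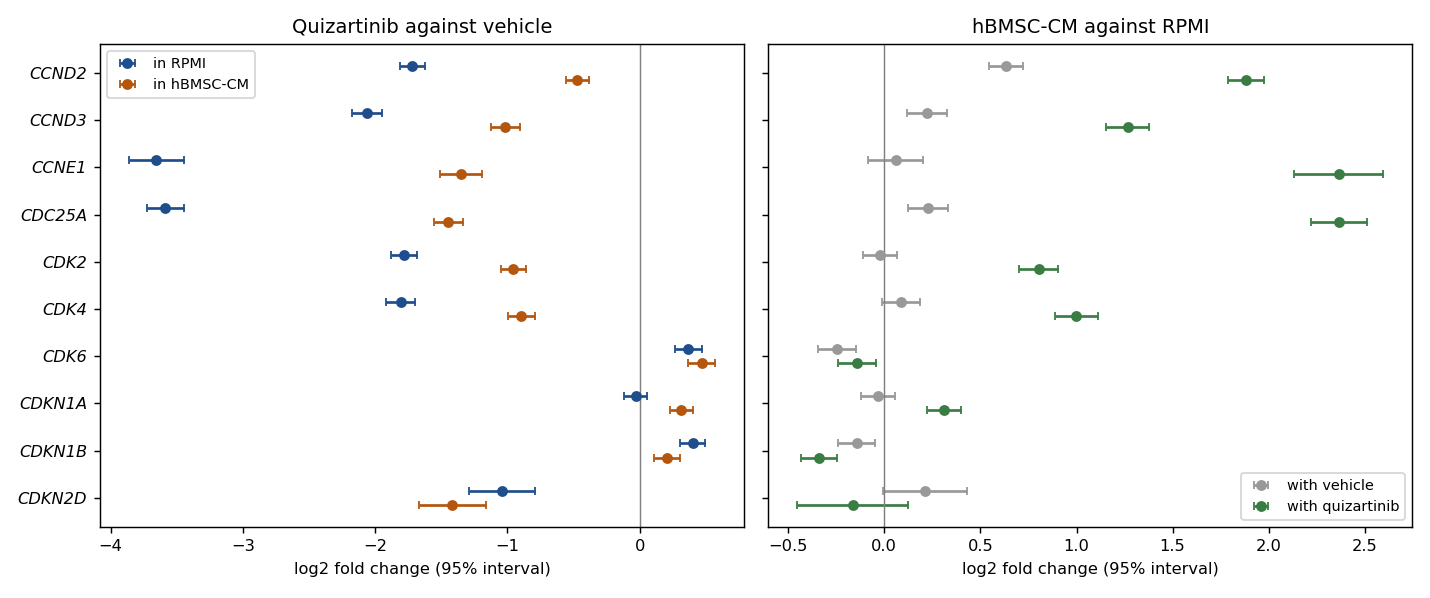
Log2 fold changes (x axis) of the 10 genes (y axis), on the left with quizartinib against vehicle in each medium and on the right in hBMSC-CM against RPMI with vehicle and with quizartinib, with bars for the 95% intervals of edgeR's fit. On the left, the 6 genes CCND2, CCND3, CCNE1, CDC25A, CDK2 and CDK4 fell less in hBMSC-CM, and on the right CCNE1 and CDC25A stand furthest from 0 with quizartinib (2.36 and 2.37).

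Set directly against each other under the drug, hBMSC-CM and RPMI differed for 9 of the 10 genes (69.8% of all genes, 35.5% higher and 34.3% lower), with 7 raised and 2 lowered by the conditioned medium. The median log2 difference of the members was 0.90, against 0.00 for all genes. CDC25A (5.15-fold), CCNE1 (5.15-fold) and CCND2 (3.68-fold) were furthest apart, followed by CCND3 (2.40-fold), CDK4 (2.00-fold), CDK2 (1.75-fold) and CDKN1A (1.24-fold). CDKN1B was 1.26-fold lower. With vehicle only 5 of the 10 differed (32.1% of all genes, 16.6% higher and 15.5% lower), with CCND2, CCND3 and CDC25A (1.17-fold) higher and CDK6 and CDKN1B lower, and the members' median was 0.07. Quizartinib in hBMSC-CM against vehicle in RPMI gave 9 calls (62.1% of all genes, 30.6% higher and 31.6% lower), with CCND2, CDK6 and CDKN1A higher, the other 6 called genes lower, and a median of −0.80. Of all genes called in that comparison 49.2% were higher, and 62.1% under scaling by library size. These comparisons share groups with each other and are not independent.

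The other genes of the G1/S pathway, a list of 53 of which 49 were tested, gave more lower than higher calls with quizartinib. This list too was chosen with earlier results of these data known. In RPMI 35 were lower and 8 higher (39.2% and 40.1% of all genes), with a median log2 fold change of −0.61 against 0.02 for all genes. In hBMSC-CM 35 were lower and 5 higher (33.7% and 33.4% of all genes), with a median of −0.40 against 0.01. The 4 untested genes were all below 1 CPM in each library. The INK4 genes CDKN2A and CDKN2B had no count in any of the 12 libraries, while CDKN1C (p57) had at most 2 counts and CDK3 at most 16 counts in a library. CDKN2D and CDKN2C were thus the INK4 genes with measurable transcript, and they moved in opposite directions in RPMI, since CDKN2C (p18) rose from 204 to 289 CPM (log2 fold change 0.50, adjusted p = 1.33e-09).

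Of the 6 other cyclins, 4 fell and 1 rose with quizartinib in RPMI, where 39.2% of all genes fell and 40.1% rose. CCNE2 (cyclin E2) fell from 81.4 to 5.74 CPM in RPMI (log2 fold change −3.82, SE 0.07, adjusted p = 1.43e-20), the lowest value among the 49. CCND1 (cyclin D1), which was low in these cells, went from 7.59 to 0.680 CPM (−3.48, SE 0.16, adjusted p = 1.16e-14) and stood at 4.77 CPM with quizartinib in hBMSC-CM. The A-type cyclin CCNA1 rose slightly in RPMI (0.28, SE 0.06, adjusted p = 0.000105), and with the drug it was lower in hBMSC-CM (−1.23, SE 0.06, adjusted p = 1.56e-13).

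Of the 10 E2F and DP factors, 9 fell with quizartinib in RPMI and 1 rose (39.2% and 40.1% of all genes). E2F1 fell by 2.88 on the log2 scale (SE 0.07, adjusted p = 3.58e-19), and TFDP2, a DP partner of E2F, rose from 8.24 to 11.5 CPM (0.49, SE 0.09, adjusted p = 3.25e-05). In hBMSC-CM 9 fell (33.7% of all genes). Among phosphatases and opposing kinases, CDC25B rose in RPMI (0.42, SE 0.05, adjusted p = 1.86e-07) where CDC25A fell, and PKMYT1, a kinase that places inhibitory phosphates on CDK1, fell from 48.5 to 7.35 CPM (−2.72, SE 0.09). Of the pocket proteins, RBL1 (p107) fell by 1.41 on the log2 scale and RBL2 (p130), which marks resting cells in textbook accounts, rose by 0.46. DTL, a substrate receptor of the CUL4 ligase that degrades licensing factors in S phase, fell from 129 to 16.2 CPM (−3.00, SE 0.05), whereas CUL4B, a scaffold of the same ligase family, rose by 0.75. MYBL2, a MuvB partner, fell by 1.70, and CKS1B, a CDK-binding subunit, fell by 1.01.

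With quizartinib, 25 of the 49 genes were called higher in hBMSC-CM than in RPMI and 9 lower (35.5% and 34.3% of all genes). The interaction was positive for 24 and negative for 5 (26.1% and 19.2% of all genes). E2F1 (1.66 on the log2 scale), DTL (1.80) and PKMYT1 (1.03) were among those higher in hBMSC-CM. CDC25C (−0.86), CUL4B (−0.69), TFDP2 (−0.71) and CDKN2C (−0.53) were among those lower. With vehicle their means were lower in hBMSC-CM too, at 153 against 204 CPM in RPMI for CDKN2C and 19.0 against 23.8 CPM for CDC25C. They were 63.2 against 73.0 CPM for CUL4B, and 7.62 against 8.24 CPM for TFDP2, whose vehicle groups overlapped. Of the 2 tested inhibitors of the list, CDKN2C among them, 0 passed the interaction. With vehicle, the conditioned medium raised 5 of the 49 and lowered 14 (16.6% and 15.5% of all genes), or 3 and 16 under upper-quartile scaling.

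**Figure D4:**
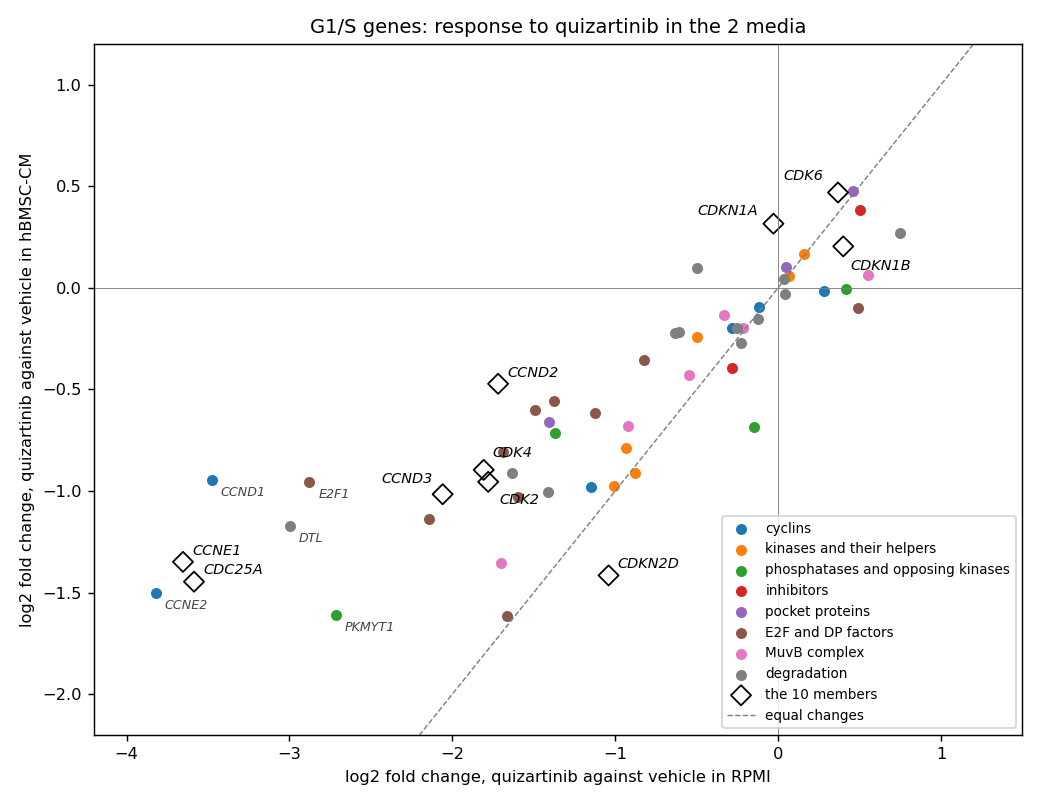
Log2 fold change with quizartinib in hBMSC-CM (y axis) against that in RPMI (x axis) for the 10 genes (open diamonds) and the 49 other tested genes of the pathway (dots, coloured by role); the dashed line marks equal changes. CCNE1, CDC25A, CCNE2, CCND1, E2F1, DTL and PKMYT1 lie at the far left, at −2.72 or below in RPMI and above −1.62 in hBMSC-CM.

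CDKN1B was set beside other targets of the FOXO factors, which are known to control it, in a list also chosen with earlier results of these data known. Of 23 FOXO target genes (CDKN1B not counted), 18 were tested, and with quizartinib in RPMI 15 rose and 2 fell (40.1% and 39.2% of all genes), with a median log2 fold change of 0.88 against 0.02 for all genes. In hBMSC-CM 15 rose and 2 fell (33.4% and 33.7% of all genes), with a median of 0.78, and under the drug 2 were higher and 13 lower in hBMSC-CM than in RPMI (35.5% and 34.3% of all genes). In RPMI, PIK3IP1 (2.50, SE 0.06) and FBXO32 (2.46, SE 0.10) rose most, and the 0.40 of CDKN1B lay below the median of the list. SOD2 (−0.85) and CITED2 (−0.20) fell.

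The genes whose log2 CPM most resembled each member over the 12 libraries, among 9279 non-member genes of 10 CPM or more on average, are given as a description, since all libraries fall into the same 4 groups. CCND2 was closest to ERLIN1 (Pearson r 0.997) and SLC27A2 (0.997). CDK2 was closest to PFKP (0.999) and SKP2 (0.999), the latter encoding the receptor of the ligase that degrades p27, and CDK4 to MFN2 and ENO1 (0.998 each). CCNE1 was closest to WDR77 (0.999) and CDC25A to SLC43A3 (0.999), which was also the next closest to CCNE1 (0.998). CCND3 was closest to FANCE (0.998), CDK6 to ZNF532 (0.990) and CDKN1B to PRKRA-AS1 (0.993), a noncoding antisense transcript whose counts are uncertain without strand. The closest match of CDKN2D, MAD2L2, had r = 0.981, and that of CDKN1A, PARP10, had r = 0.954, the lowest of the 10. Within the set, CCND3, CCNE1, CDC25A, CDK2 and CDK4 correlated at 0.979 to 0.998 with each other.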

How the data were processed

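The data were RNA-seq counts of 12 libraries of MOLM-13 cells, 3 in each of the 4 groups given by the labels. The authors prepared poly-A-selected libraries, sequenced them from both ends, trimmed adapters with BBDuk and removed short reads. They aligned the reads to the Ensembl human genome (hg38) and counted them per gene with STAR 2.6.0a, and the deposited values are raw counts, summed over identifiers that share a gene name. Strand use in the counting is not given in the sources used here.

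As in the study, genes averaging below 1 count or below 1 CPM over the 12 libraries were removed, which left 12998. Counts were scaled by TMM and tested with edgeR 4.0.16 (glmQLFit, glmQLFTest; R 4.3.3), in 1 model with 4 group means and 8 residual degrees of freedom. Tests were two-sided, with Benjamini-Hochberg adjustment over all genes and a threshold of 0.05. Groups called separate have no overlap between the CPM of their libraries. The study used limma, which was run here as an alternative (limma 3.58.1, voom and trend), beside DESeq2 1.42.0, other scalings and filters, a threshold of 0.01, only the groups compared, a replicate block, and each library left out in turn. Log2 CPM for correlations used a prior count of 2. Levels per kilobase used the canonical transcript of GENCODE (GRCh38), as did coordinates, and promoter windows came from RefSeq (GRCh38.p14).

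Depth was 19966546 to 31546104 counts per library. In the 12 pairs of libraries within groups, the chi-square of the counts was 2.66 to 10.5 per gene, so no library looked deposited more than once. On counts simulated for quizartinib against vehicle in RPMI over 12998 genes with 200 changed, edgeR recovered 176 with the correct sign and made 11 false calls, 5.88% of its calls. Far fewer genes changed there than in the data, where 79.3% were called in this comparison. The simulation therefore does not give the share of false calls in these data.

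The members and the lists were chosen with earlier results of these data known. Beside the members, the text names, from each role of the pathway list, called genes of largest rise and fall with quizartinib in RPMI and between media under quizartinib, from a list of FOXO targets the 2 largest each way in RPMI, and for each member the most similar genes by Pearson r. Fewer of these are given in the text than the rule allows, and 1 further list is not reported here.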

Additional observations from a re-analysis of the deposited data

Results flagged for a closer look

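For 8 of the 10 genes the response to quizartinib differed between hBMSC-CM and RPMI by a test of the difference itself, the interaction term of edgeR's quasi-likelihood fit. The term, the log2 response in hBMSC-CM minus that in RPMI, was 2.30 for CCNE1, 2.14 for CDC25A, 1.25 for CCND2, 1.04 for CCND3, 0.91 for CDK4, 0.82 for CDK2 and 0.34 for CDKN1A. For CDKN1B it was −0.20, which passed with the least margin (adjusted p = 0.0185). The first 6 fell in both media and fell less in hBMSC-CM. CDKN1A rose in hBMSC-CM and was not called in RPMI. For CDK4 the value is uncertain because of the bases shared with TSPAN31 on the opposite strand, and how reads from those bases were counted was not tested. Each library was left out in turn, but no library was tested as an outlier of its group of 3.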

How the results depend on the processing

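Of the 60 values tested (10 genes in 6 comparisons), 52 kept their direction and their side of the threshold in all alternatives run. The log2 fold change of CDKN1A with quizartinib in RPMI, not called, changed sign under scaling by library size (0.0597), upper-quartile scaling (0.0727) and without replicate 1 of quizartinib in RPMI (−0.0573 to 0.0033 with 1 library left out). CDK2 between media with vehicle did so without replicate 2 of vehicle in hBMSC-CM (−0.0340 to 0.0024), and the cause was not tested. At a threshold of 0.01, 2692 genes and 12 genes of the pathway list were called between media with vehicle, against 4174 and 19, since the threshold was stricter. With the other scalings the median of all genes shifted by up to 0.104 on the log2 scale (library size, quizartinib in hBMSC-CM), against changes of 0.47 or more for the members lowered there. The members raised there changed by 0.20 (CDKN1B), 0.32 (CDKN1A) and 0.47 (CDK6), so the shift is not small beside the rise of CDKN1B.

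With 1 library left out, members called ranged from 9 to 9 of 10 for quizartinib in RPMI, 10 to 10 for quizartinib in hBMSC-CM, 8 to 9 and 4 to 5 between media with quizartinib and with vehicle, 9 to 9 for quizartinib in hBMSC-CM against vehicle in RPMI, and 7 to 9 for the interaction. All genes called ranged from 9950 to 10399, 8148 to 8777, 8478 to 9208, 3278 to 4338, 7362 to 8228 and 5406 to 5899 in the same order. The pathway list ranged from 41 to 45, 37 to 40, 33 to 36, 13 to 19, 34 to 38 and 26 to 29, and the FOXO list from 17 to 18 for quizartinib in RPMI.

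Replicate numbers did not pair the libraries (0 of 18 same-numbered pairs had a correlation of deviations above 0.1, range −0.23 to 0.098, and 0 of 12 libraries matched best with their own number). With the replicate number as a block, 10224, 8611, 8962, 3953, 7926 and 5679 genes were called in the same order, and the same 9, 10, 9, 5, 9 and 8 members. Among the members, low counts limit CDKN2D most, with as few as 61 counts in a library.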
